A study of Mus musculus with 31 samples.

Results

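Interferon-stimulated genes (ISGs) are genes whose transcription rises when a cell senses interferon. The group described here holds 45 mouse ISGs, chosen by symbol as well-known members of the response, and a gene was kept if at least 10 reads were counted on it in at least 3 libraries. All 45 were kept, out of 22609 gene symbols in the count tables. In 39 of the 45 genes every one of the 31 libraries had 10 reads or more, and 1 gene, Oas1g, had a count of 0 in at least 1 library. Oas1g was left out of most comparisons with vehicle by the same minimum of reads, which leaves 44 genes there.

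Type I interferons bind the receptor Ifnar1/Ifnar2, whose kinases Jak1 and Tyk2 act on Stat2, which joins Irf9 in the complex ISGF3, and ISGF3 binds the interferon-stimulated response element (ISRE) in promoters. Interferon gamma binds Ifngr1/Ifngr2 and acts on promoters mainly through the gamma-activated site (GAS). Products of ISGs sense viral nucleic acid, block translation, degrade RNA, trap virions or attack vacuoles that hold pathogens, and macrophages and other leukocytes that enter injured muscle express many of them.

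The data are stranded poly(A) RNA-seq libraries of the masseter muscle (MM), a chewing muscle, from 31 adult male C57BL/6J mice, 1 library per mouse. The study asked how gene expression in MM shifts with orofacial hypersensitivity after inflammation by complete Freund's adjuvant (CFA), an oil emulsion with killed mycobacteria, or after tissue damage by collagenase type 2 (Col), given into the left MM with PBS as vehicle. The CFA experiment held 3 vehicle-treated mice, 3 mice at 1d post-CFA and 3 mice at 5d post-CFA. The Col experiment held 3 vehicle-treated mice, 4 mice in each of the 0.2U Col groups labelled 1C and RPC, and 4, 3 and 4 mice labelled 2d, 6d and 12d post-Col (10U). The methods text gives other days than the labels for the first and the last of these, and the labels' days are used here. The labels tie neither the 0.2U groups nor the vehicle groups to a day. The muscle was taken whole, deep to superficial, so each library mixes muscle fibres with resident and infiltrating cells, and fewer cells of a type and less RNA per cell cannot be told apart.

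Each library held 14843778 to 29076671 reads on genes (median 20834472), and no pair of libraries was identical. Reads ambiguous between genes were 0.331% to 0.399% in the 10U Col libraries, against 0.0899% to 0.115% in the Col vehicle libraries. They were 0.0757% to 0.138% in the 0.2U Col libraries and 0.0885% to 0.119% in the CFA experiment. The labels do not explain this difference, and it cannot be told apart from the 10U dose. Values per mouse are CPM, which set the counts of all libraries to a common size, scaled further by the TMM method. All 8 skeletal muscle markers were detected in every group, with summed levels of 33536 to 167544 CPM over the 31 libraries. Salivary gland markers, 5 of the 8 listed being detected, also stood in many libraries: their sum was 48046 to 65588 CPM at 5d post-CFA against 68.6 to 6370.4 in its vehicle group, 63.6 to 47603 in the Col vehicle group, 10181 to 130139 in RPC and 10.7 to 31.2 at 6d post-10U Col. The summed level of 11 monocyte and macrophage markers was 118 to 444 CPM in the CFA vehicle group, 275 to 772 at 1d and 333 to 649 at 5d post-CFA. In the Col experiment it was at most 536 CPM in the vehicle group, 347 to 693 in 1C, 322 to 450.0 in RPC, 611 to 1624 at 2d, 1604 to 3287 at 6d and 155 to 1196 at 12d.

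Promoter sequences were matched to 34 of the 45 ISGs in RefSeq's GRCm38.p6 annotation, and none was found in that table for Dhx58, Gbp4, Gbp6, Mx1, Mx2, Oas2, Parp14, Parp9, Rtp4, Usp18 and Zbp1. The 250 bases before each transcription start were searched on both strands for the ISRE core GAAANNGAAA and the GAS core TTCNNNGAA, which can overlap. The ISRE core stood in 16 of the 34 ISGs (47.1%) and in 936 of all 27025 genes with a promoter (3.46%), and per promoter in 40% of theirs and 2.98% of all. The GAS core stood in 8 of the 34 (23.5%) and in 8.13% of all genes, and per promoter in 20% of theirs and 7.02% of all. By role the ISRE core was found in 6 of 7 immunity-related GTPase (IRG) and guanylate-binding protein (GBP) genes, 3 of 5 OAS genes, 2 of 3 IFIT genes and 3 of 10 other effectors. It stood in 1 of 3 genes of the ISGF3 group, which holds Stat2, Irf9 and also Irf7, a factor outside ISGF3 itself. Of the ISG15 system it stood in 1 of 2 genes, and in 0 of 3 sensors and 0 of 1 gene of the PARP9 module. The promoters below are examples from several roles, each shown as the 160 bases before the start, read 5′ to 3′ on the gene's strand. Capitals mark ISRE and GAS core matches. Isg15 lies at chr4:156200819-156200978 on the minus strand, Ifit1 at chr19:34640729-34640888 on the plus strand, Ifit3 at chr19:34583369-34583528 on the plus strand and Bst2 at chr8:71537473-71537632 on the minus strand. Igtp lies at chr11:58199396-58199555 on the plus strand, Irgm2 at chr11:58214817-58214976 on the plus strand and Irf7 at chr7:141266425-141266584 on the minus strand.
Isg15: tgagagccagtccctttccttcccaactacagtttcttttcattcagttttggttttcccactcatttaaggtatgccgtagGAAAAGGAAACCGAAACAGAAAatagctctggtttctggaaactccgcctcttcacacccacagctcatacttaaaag
Ifit1: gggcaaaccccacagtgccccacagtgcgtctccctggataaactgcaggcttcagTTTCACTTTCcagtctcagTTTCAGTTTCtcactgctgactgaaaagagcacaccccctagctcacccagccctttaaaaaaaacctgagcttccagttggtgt
Ifit3: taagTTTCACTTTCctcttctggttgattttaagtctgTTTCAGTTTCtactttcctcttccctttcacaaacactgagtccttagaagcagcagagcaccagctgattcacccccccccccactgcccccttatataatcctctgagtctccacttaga
Bst2: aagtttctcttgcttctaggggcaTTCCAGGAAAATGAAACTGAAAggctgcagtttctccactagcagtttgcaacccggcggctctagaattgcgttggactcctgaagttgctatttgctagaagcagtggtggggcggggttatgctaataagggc
Igtp: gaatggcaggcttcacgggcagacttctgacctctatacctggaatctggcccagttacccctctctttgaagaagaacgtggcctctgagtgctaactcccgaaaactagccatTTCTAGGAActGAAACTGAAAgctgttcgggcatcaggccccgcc
Irgm2: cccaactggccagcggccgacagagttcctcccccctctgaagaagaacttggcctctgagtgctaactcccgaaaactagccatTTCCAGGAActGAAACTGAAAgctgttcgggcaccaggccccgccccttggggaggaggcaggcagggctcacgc
Irf7: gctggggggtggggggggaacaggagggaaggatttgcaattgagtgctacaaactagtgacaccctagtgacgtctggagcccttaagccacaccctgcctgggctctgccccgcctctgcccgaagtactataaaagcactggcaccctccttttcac

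Isg15 held 3 overlapping ISRE matches and Ifit1 and Ifit3 held 2 each. Ifit2, the IFIT example in the expression results, had 1 GAS match and no ISRE match in its window. Igtp and Irgm2, neighbours on chromosome 11, each had 1 GAS match next to 1 ISRE match, and Bst2 had both kinds as well. Irf7 had neither core in its window. A match is a run of letters and was not tested for binding.

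Level per length of transcript differed widely between the 45 genes. Averaged over the 31 libraries, Bst2 (tetherin, which holds budding virions at the cell surface) was highest at 45.6 RPKM, followed by Irgm2 at 18.6, Igtp at 17.4, Ifi35 at 16.0 and Isg15 at 12.5 RPKM. Oas1g was lowest at 0.220 RPKM and Oas3 next at 0.503. Counts of some genes were uncertain because 50-base windows recur in a relative: 53.0% of windows of Oas1a and 50.6% of Oas1g occurred in each other, 51.5% of Ifit3 in I830012O16Rik and 80.0% of Gbp6 in Gbp10. Irf9 overlaps Rnf31 and Ifi47 overlaps Olfr56 on the same strand, with 2.39% and 3.43% of their windows shared with another gene. Parp9 and Dtx3l overlap on opposite strands, and it was not stated whether the counting used strand.

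The mean log2 CPM of the 45 genes was used as a score of each mouse, as a description without a test. In CFA vehicle-treated mice 1, 2 and 3 it was 2.37, 2.85 and 2.95 (mean 2.72 ± 0.31 SD, n = 3). At 1d post-CFA it was 3.32, 3.04 and 4.63 (3.66 ± 0.85), and at 5d post-CFA 3.56, 4.29 and 5.20 (4.35 ± 0.82). Every CFA-treated mouse stood above every CFA vehicle-treated mouse, and mouse 3 was highest in both CFA groups. In Col vehicle-treated mice the score was 2.62, 2.87 and 3.05 (2.85 ± 0.22, n = 3). In 1C it was 3.77, 3.08, 3.66 and 2.96 (3.37 ± 0.41, n = 4), and in RPC 3.25, 3.18, 4.03 and 3.19 (3.41 ± 0.42, n = 4). At 2d, 6d and 12d post-10U Col the means were 3.32 ± 0.22 (n = 4), 3.69 ± 0.52 (n = 3) and 3.23 ± 0.54 (n = 4), and the highest mouse of each group reached 3.61, 4.23 and 4.02. The RPC, 2d and 6d groups did not overlap with their vehicle group, whereas 1C and 12d did. The 5 Col groups share 1 vehicle group, as the 2 CFA groups share theirs, so the comparisons within an experiment are not independent.

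**Figure D1:**
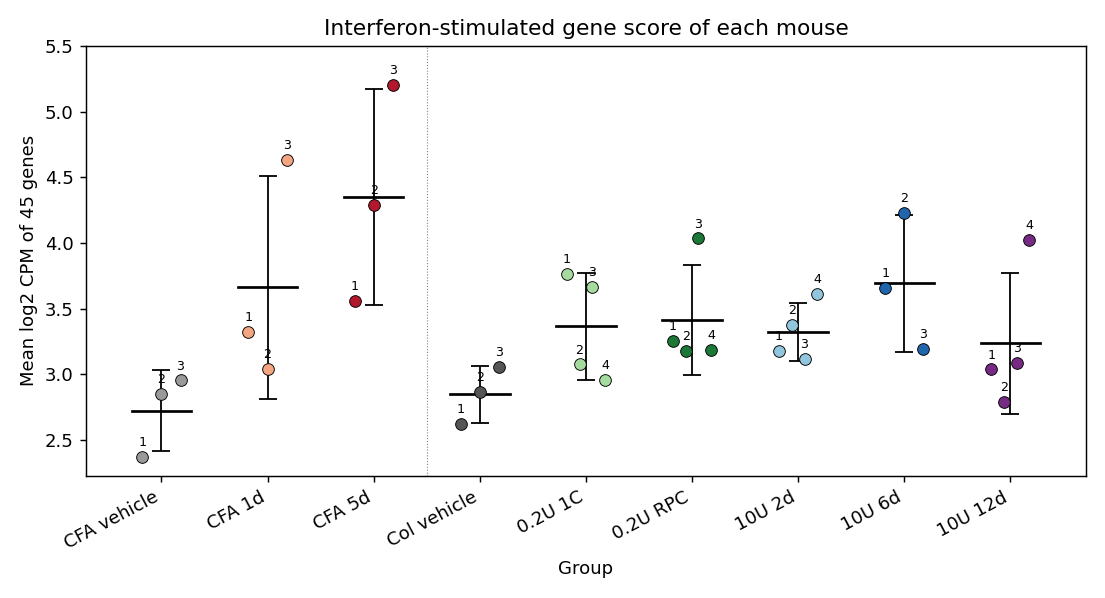
Mean log2 CPM of the 45 ISGs in each mouse (points, numbered as in the labels) by group, with the group mean (bar) and SD (whiskers), and a dotted line between the CFA and the Col experiment. The CFA-treated mice sit between 3.04 and 5.20, above the CFA vehicle-treated mice at 2.37 to 2.95.

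Within a group most of the 45 genes were highest in the same mouse. Mouse 3 was highest for 45 of 45 genes at 5d post-CFA, where 41 genes followed the order mouse 1, mouse 2, mouse 3 from low to high, and for 43 genes at 1d post-CFA. Mouse 3 was highest for 40 genes in RPC, mouse 2 for 43 genes at 6d, mouse 4 for 38 genes at 12d and mouse 4 for 30 genes at 2d post-10U Col. Over all 31 libraries, 31 of the 45 genes had their highest value in a mouse at 5d post-CFA. Groups of 3 or 4 mice thus often held 1 mouse with the highest level for most ISGs. How often that mouse was highest over all genes is not given here, so this cannot be read as particular to ISGs.

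**Figure D2:**
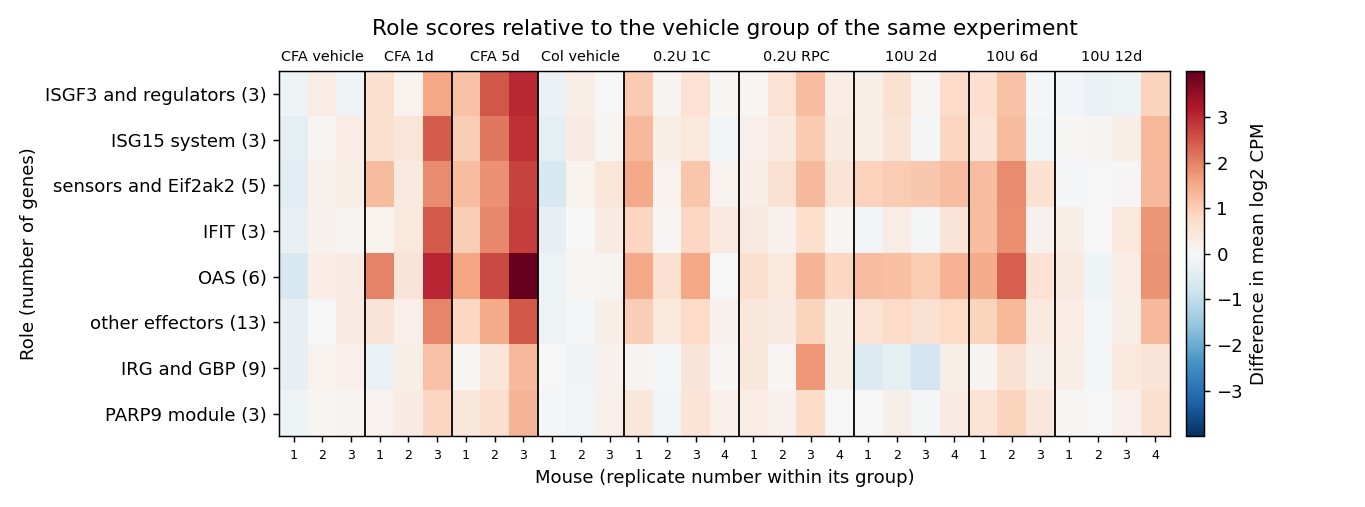
Mean log2 CPM of the genes of each role (rows, number of genes in brackets) in each mouse (columns) minus the mean of the vehicle group of the same experiment, with red above and blue below vehicle. The OAS row holds the darkest red, at 5d post-CFA in mouse 3, and the IRG and GBP row is blue in mice 1 to 3 at 2d post-10U Col.

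At 5d post-CFA, a time after hypersensitivity had ended, ISGs stood higher than in vehicle-treated mice in nearly every role, from the ISGF3 group to antiviral effectors, and least in the IRG and GBP genes. Of 45 genes tested 43 were higher, 33 by more than 2-fold, and the median log2 fold change was 1.60 against -0.02 over all 14026 genes tested. In 33 genes all 3 CFA-treated mice exceeded all 3 vehicle-treated mice, which held for 14.0% of all genes. At an unadjusted p under 0.05, 34 genes were higher (10.3% of all genes). Only Irf9 passed edgeR's quasi-likelihood test after Benjamini-Hochberg adjustment over all genes (1.06% of all genes were called higher), whereas DESeq2 called 29 of the 45 (5.06% of all genes).

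Irf9, the DNA-binding subunit of ISGF3 (mm9 chr14:56222408-56228867, plus strand), was at 35.5, 53.3 and 63.9 CPM at 5d post-CFA and at 16.8, 20.6 and 17.5 CPM in vehicle-treated mice. The groups did not overlap, and Irf9 rose with a log2 fold change of 1.53 (SE 0.23, adjusted p = 0.0397, edgeR's quasi-likelihood test). Its partner Stat2 (mm9 chr10:127707629-127729905, plus strand) was at 33.3, 63.2 and 101 CPM against 15.2, 17.2 and 17.8 CPM, a log2 fold change of 2.02 (SE 0.38, adjusted p = 0.0639). Irf7, the factor that amplifies transcription of interferon genes, was at 30.7, 168 and 259.6 CPM against 7.80 to 16.7 CPM, and was named after its values were seen. All 3 factors were separated from vehicle, with mouse 3 highest.

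Isg15, a ubiquitin-like protein attached to other proteins (mm9 chr4:155573533-155574927, minus strand), was at 9.32, 29.8 and 42.6 CPM against 3.84, 4.61 and 3.61 CPM. The lowest CFA-treated mouse was thus above every vehicle-treated mouse, with a log2 fold change of 2.81 (SE 0.52, adjusted p = 0.0591). Ddx58, the RNA sensor RIG-I (mm9 chr4:40150806-40186861, minus strand), was at 23.8, 36.7 and 59.3 CPM against 9.41, 12.8 and 14.7 CPM (log2 fold change 1.74, SE 0.36, adjusted p = 0.0740). All 5 sensors, a group that includes Eif2ak2 (the translation-blocking kinase PKR), were separated from vehicle, with log2 fold changes from 0.82 to 3.73.

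The 6 OAS genes, most of which make the 2-5A messenger that activates RNase L, showed the highest median of any role, 3.21 on the log2 scale (range 2.76 to 3.60), and all 6 were separated from vehicle. Oasl2 was at 21.1, 73.4 and 97.5 CPM against 6.18, 9.85 and 7.40 CPM (log2 fold change 3.08, SE 0.54, adjusted p = 0.0527). Ifit2, which binds viral RNA and restrains translation, was at 12.5, 12.6 and 27.0 CPM against 5.29, 8.98 and 10.1 CPM (log2 fold change 1.14, SE 0.40, adjusted p = 0.249). Oasl2 thus spread over its 3 CFA-treated mice, whereas for Ifit2 mice 1 and 2 lay close together and mouse 3 was high. Bst2 was at 37.5, 82.7 and 125 CPM against 18.4, 35.6 and 19.8 CPM, without overlap (log2 fold change 1.79, SE 0.45, adjusted p = 0.122).

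The 9 IRG and GBP genes, GTPases that attack pathogen vacuoles and respond strongly to interferon gamma, had a median log2 fold change of 0.53 at 5d post-CFA, with 3 of 9 separated from vehicle. Irgm2 (mm9 chr11:58028530-58036282, plus strand) was at 46.5, 77.0 and 126 CPM against 68.7, 72.1 and 50.9 CPM. The groups overlapped, and its log2 fold change was 0.44 (SE 0.35, adjusted p = 0.656). The ADP-ribosyltransferase Parp14 was at 42.2, 49.7 and 88.6 CPM against 25.8, 35.5 and 30.8 CPM (log2 fold change 1.02, SE 0.30, adjusted p = 0.171).

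The count of ISGs called at 5d post-CFA hung on single mice: without vehicle-treated mouse 3 it was 33, without CFA-treated mouse 1 it was 8, and without any other mouse it was 0. Shares of all genes called in these fits are not given here, so the counts cannot be read as particular to ISGs. Vehicle-treated mouse 3 differed from vehicle-treated mice 1 and 2 in marker scores. Its neutrophil score was 5.70 against -1.28 and -0.71, and its B cell score 1.88 against -2.79 and -2.30. Its bone and tendon score was 4.27 against -2.50 and -0.03, and its salivary gland score 4.27 against -0.94 and -0.63. The part of these markers in the result was not tested. Without CFA-treated mouse 3 the median log2 fold change was 1.17. Salivary gland markers stood high in all 3 mice at 5d (above), and the T and NK cell score was also higher in them, at -0.97 to -0.27 against -3.19 to -1.17 in vehicle-treated mice, although the summed CPM of these markers overlapped (5.42 to 10.9 against 0.161 to 5.63). Keratinocyte markers summed to 33.2 to 37.2 CPM against 7.84 to 13.2 CPM, and the part of these T and NK cell and keratinocyte markers in the result was not tested. In 1 fit over all libraries the median was 1.53 with 9 ISGs called. The same fit had a median of 1.39 and 0 calls with the salivary gland score as a covariate, and 1.32 and 0 calls with the macrophage score. Gland scores at 5d, 5.60 to 6.16, all lay above vehicle, so the gland fit cannot tell that score apart from the treatment.

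**Figure D3:**
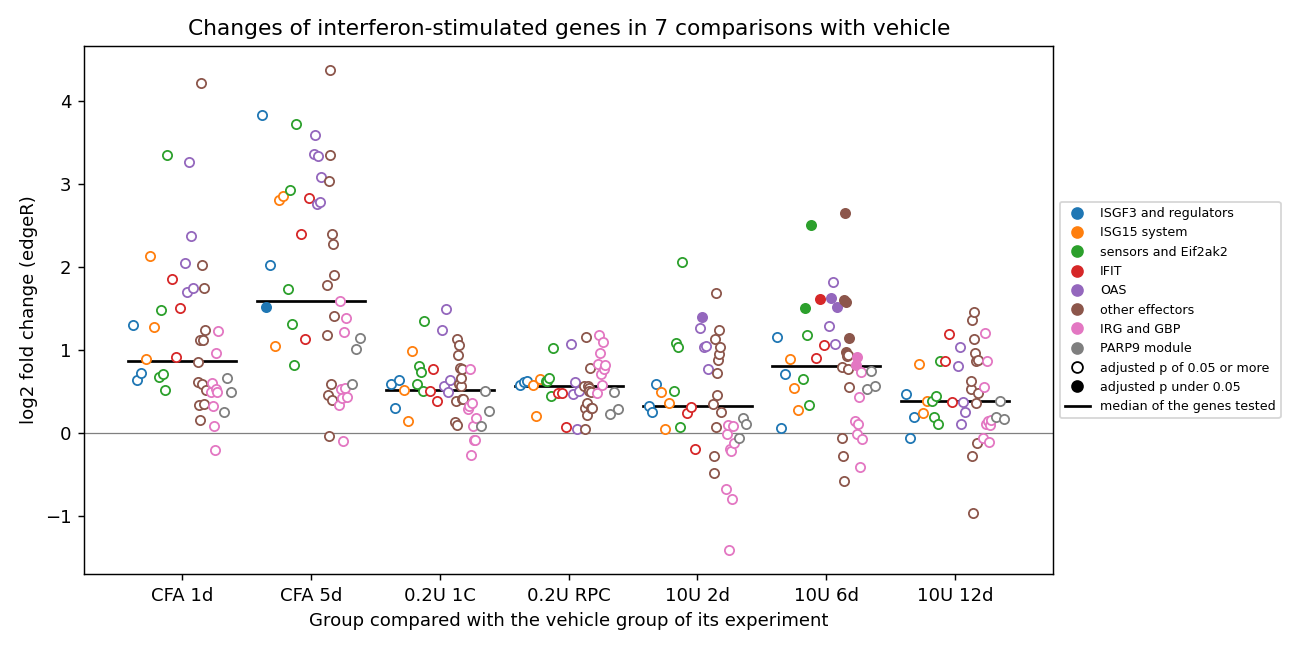
Log2 fold change of each ISG (points, coloured by role) in the 7 comparisons with vehicle, with filled points where edgeR's adjusted p was under 0.05 and a bar at the median of the genes tested. The median is highest at 5d post-CFA (1.60), while most filled points stand at 6d post-10U Col (12).

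At 1d post-CFA, while hypersensitivity was present, the same roles stood higher on average but with a wide spread between mice. Of 44 ISGs tested 43 were higher, 19 by more than 2-fold, and their median log2 fold change was 0.88, where all 13944 genes had -0.01. No ISG was called by edgeR after adjustment, nor was any gene of the table (0%), while 18 ISGs had an unadjusted p under 0.05 (3.06% of all genes were higher at that level). DESeq2 called 2, Mx1 and Zbp1 (0.330% of all genes). In 9 ISGs the groups did not overlap (2.83% of all genes).

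The smallest unadjusted p-values belonged to Zbp1, Oas2 and Oasl2. Zbp1, a sensor of Z-form nucleic acid, was at 11.1, 1.78 and 20.6 CPM against 0.444, 1.64 and 1.21 CPM (log2 fold change 3.35, SE 0.89, adjusted p = 0.924). Oas2 was at 9.57, 6.49 and 19.0 CPM against 2.54, 4.15 and 4.08 CPM (1.71, SE 0.46, adjusted p = 0.924). Oasl2 was at 25.0, 10.7 and 42.6 CPM against 6.18, 9.85 and 7.40 CPM (1.75, SE 0.48, adjusted p = 0.924). In all 3 genes mouse 2 was the CFA-treated mouse nearest to the vehicle range and mouse 3 was highest, and the groups did not overlap.

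Isg15 was at 9.65, 5.74 and 36.9 CPM at 1d post-CFA, above the vehicle range of 3.61 to 4.61 CPM, with a log2 fold change of 2.14 (SE 0.67). Irgm2 was at 157, 67.7 and 222 CPM against 50.9 to 72.1 CPM (1.23, SE 0.41), so that mouse 2 lay within the vehicle range. Bst2 at 47.7, 24.1 and 61.1 CPM had a log2 fold change of 0.85 (SE 0.39), Stat2 at 24.3, 17.3 and 41.2 CPM 0.72 (SE 0.33) and Ddx58 at 17.2, 13.9 and 27.9 CPM 0.68 (SE 0.33). Parp14 at 33.7, 42.6 and 69.4 CPM had 0.67 (SE 0.31), and Ifit2 at 5.15, 10.9 and 29.8 CPM had 0.92 (SE 0.62). All 7 had an adjusted p of 0.924. In Bst2, Stat2, Ddx58 and Parp14 at least 1 CFA-treated mouse fell within the vehicle range, for Ifit2 mouse 1 fell below it, and mouse 3 was highest for all 5. Without mouse 3 the median log2 fold change was 0.34 with 33 of 43 ISGs higher, and Ifit2 was at -0.034.

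Between 5d and 1d post-CFA, 40 of 45 ISGs were higher at 5d, and the median log2 fold change was 0.53. No ISG was called by edgeR (4.85% of all genes were), 7 had an unadjusted p under 0.05 (11.4%), and DESeq2 called 2, Stat2 and Xaf1 (6.69%). The smallest unadjusted p-values were those of the 3 ISGF3-related factors: Irf7 (30.7, 168 and 259.6 CPM at 5d against 18.2, 12.4 and 51.2 CPM at 1d) with a log2 fold change of 2.50 (SE 0.81, adjusted p = 0.138), Irf9 with 0.87 (SE 0.30, adjusted p = 0.161) and Stat2 with 1.28 (SE 0.45, adjusted p = 0.170). No ISG was without overlap between the 2 groups. The median was 0.06 without mouse 3 at 5d and 1.21 without mouse 3 at 1d.

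At 6d post-10U Col, a time ahead of recovery, 12 of 44 ISGs tested rose and none fell by edgeR's quasi-likelihood test with Benjamini-Hochberg adjustment. At this time 14.0% of all 14281 genes were called higher. DESeq2 called 17 ISGs (17.1% of all genes), among them all 12 of edgeR. The median log2 fold change was 0.81 against 0.01 over all genes, 38 of 44 were higher, and 21 had an unadjusted p under 0.05 (21.5% of all genes). In 16 ISGs all Col-treated mice exceeded all vehicle-treated mice (24.8% of all genes), and Igtp alone lay below the vehicle range in all 3 mice. How many of all genes lay below is not given here. The 12 called genes were mostly antiviral effectors, OAS genes and sensors, with 2 GBP genes.

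Mx1, a gene of the dynamin-like GTPase family, had the largest change (log2 fold change 2.65, SE 0.61, adjusted p = 0.0210). It was at 6.01, 8.45 and 1.87 CPM against 0.523, 0.732 and 1.25 CPM in vehicle-treated mice. Its relative Mx2 was at 2.02, 3.29 and 1.66 CPM against 0.567, 0.665 and 1.03 CPM (1.58, SE 0.43, adjusted p = 0.0326). Zbp1 was at 6.19, 12.9 and 2.99 CPM against 0.392, 1.40 and 2.01 CPM (2.50, SE 0.70, adjusted p = 0.0353). In all 3 genes mouse 2 was highest, mouse 3 lowest, and the groups did not overlap.

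Oas2 was at 11.3, 20.3 and 8.96 CPM against 3.79, 4.19 and 4.88 CPM (log2 fold change 1.62, SE 0.33, adjusted p = 0.0148), the smallest adjusted p of the 44. Oasl2 was at 31.4, 54.6 and 17.4 CPM against 6.75, 17.4 and 11.5 CPM, where mouse 3 was level with the highest vehicle-treated mouse (1.52, SE 0.46, adjusted p = 0.0437). Ifit2 was at 20.3, 34.6 and 11.7 CPM against 5.40, 6.58 and 9.27 CPM (1.61, SE 0.40, adjusted p = 0.0259). Dhx58, the RIG-I-like receptor LGP2, was at 6.96, 11.5 and 3.77 CPM against 1.53, 3.59 and 2.60 CPM (1.51, SE 0.47, adjusted p = 0.0483). These 4 genes repeated the order of the mice seen for Mx1.

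Ifi44, an interferon-induced cytoplasmic protein, was at 8.46, 12.8 and 5.48 CPM against 1.96, 3.59 and 3.09 CPM (log2 fold change 1.61, SE 0.38, adjusted p = 0.0222). Trim30a, a regulator of inflammatory signalling, was at 14.8, 23.9 and 13.1 CPM against 6.10, 6.32 and 10.3 CPM (1.15, SE 0.32, adjusted p = 0.0339), and Rsad2, the antiviral enzyme viperin, at 28.7, 37.0 and 25.9 CPM against 16.7, 10.3 and 18.4 CPM (0.98, SE 0.26, adjusted p = 0.0324). Gbp4 was at 15.6, 20.2 and 18.7 CPM against 9.02, 7.25 and 11.9 CPM (0.92, SE 0.24, adjusted p = 0.0306). Gbp3 was at 18.9, 24.5 and 14.3 CPM against 9.11, 11.2 and 11.7 CPM (0.83, SE 0.23, adjusted p = 0.0373). All 5 genes were without overlap between the groups.

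Other ISGs did not pass the test at 6d. Stat2 was at 32.0, 43.5 and 23.2 CPM against 16.1, 21.3 and 21.8 CPM (log2 fold change 0.71, SE 0.25, adjusted p = 0.0669) and Parp14 at 44.3, 67.5 and 43.6 CPM against 26.4, 26.5 and 37.6 CPM (0.75, SE 0.24, adjusted p = 0.0524), both without overlap. Ddx58 was at 24.3, 32.9 and 16.9 CPM against 13.6, 14.9 and 17.5 CPM (0.66, SE 0.25, adjusted p = 0.0875). Isg15, at 8.42, 13.7 and 3.61 CPM against 4.23, 9.31 and 3.94 CPM, overlapped with vehicle (0.55, SE 0.51, adjusted p = 0.434), as did Bst2 at 36.3, 55.1 and 21.5 CPM against 18.7, 33.8 and 12.0 CPM (0.80, SE 0.42, adjusted p = 0.185). Irgm2, at 36.6, 45.1 and 44.9 CPM against 50.2, 36.4 and 43.9 CPM, had a log2 fold change of -0.07 (SE 0.18, adjusted p = 0.791).

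The called genes at 6d stood beside more macrophage transcript: the summed macrophage markers of the 3 mice, 1604 to 3287 CPM, were all above the vehicle group, which reached 536 CPM at most. In 1 fit over all libraries the median log2 fold change of the ISGs was 0.83 with 8 called. In the same fit it was 0.016 with 0 called with the macrophage score as a covariate, and 0.94 with 3 called with the salivary gland score. Macrophage scores were 6.21 to 7.25 at 6d and 2.98 to 4.57 in vehicle-treated mice, and gland scores did not overlap either. These fits therefore cannot tell the scores apart from the treatment. Without mouse 2 no ISG was called and the median was 0.53, and without vehicle-treated mice 1 or 2 or Col-treated mouse 1 the count was 1, 6 and 2. It was 16 without vehicle-treated mouse 3 and 13 without Col-treated mouse 3, and the share of all genes called in each of these fits is not given here.

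**Figure D4:**
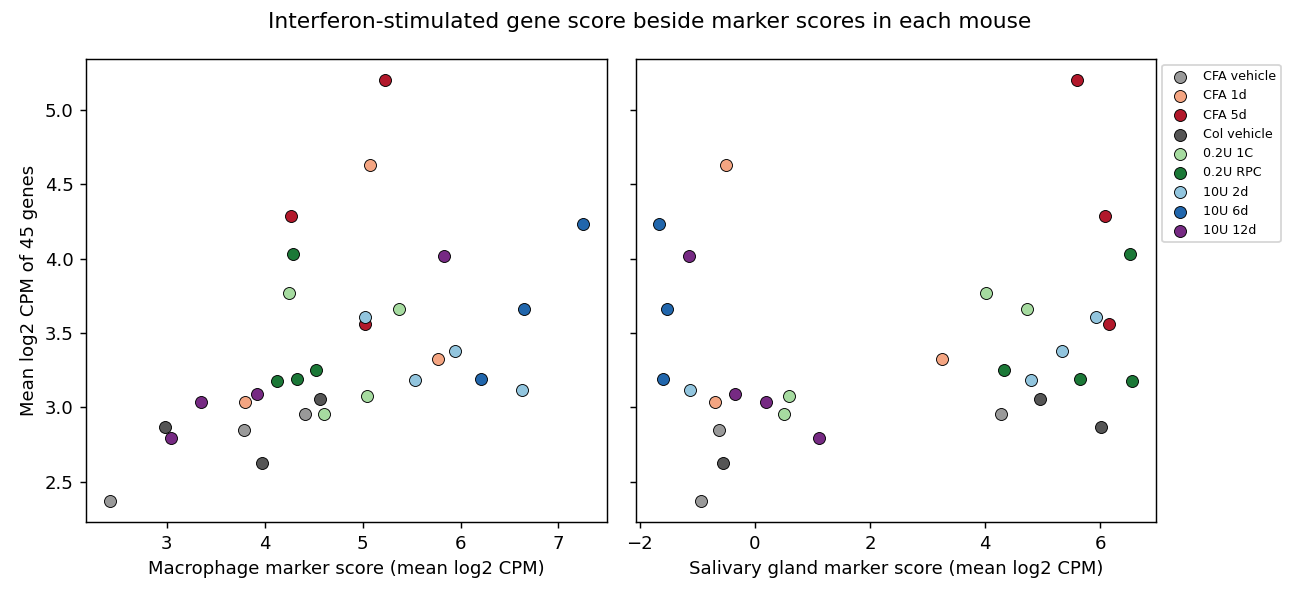
ISG score of each of the 31 mice (y axis, mean log2 CPM of 45 genes) against the mean log2 CPM of macrophage markers (left) and salivary gland markers (right), coloured by group. The 6d post-10U Col mice hold the highest macrophage scores apart from 1 mouse at 2d, at 6.21 to 7.25, while the 5d post-CFA mice reach the highest ISG score (5.20) at macrophage scores of 4.26 to 5.23.

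At 2d post-10U Col the medians of the roles lay on both sides of 0. Oas2 rose, at 13.6, 11.9, 12.0 and 9.10 CPM against 3.79, 4.19 and 4.88 CPM in vehicle-treated mice (log2 fold change 1.40, SE 0.24, adjusted p = 0.0450, edgeR's quasi-likelihood test), and was the 1 ISG called of 44 tested (1.14% of all 14373 genes were called higher). OAS genes had a median log2 fold change of 1.05 and sensors of 1.04, whereas the 9 IRG and GBP genes had -0.19 with 2 of 9 higher. Over the 44 genes 33 were higher and the median was 0.33 against 0.02 over all genes. At an unadjusted p under 0.05, 14 were higher and 1 lower (17.5% of all genes were higher), 11 were without overlap above vehicle and 1 below (11.7% above), and DESeq2 called 7 higher and 1 lower (11.7% higher). The shares of all genes that were lower are not given here, so the 1 lower ISG has no rate beside it.

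The 1 lower gene in all 3 counts was Igtp, an IRG protein recruited to pathogen vacuoles, at 14.2, 14.6, 14.5 and 22.9 CPM against 31.6, 23.7 and 28.5 CPM, with mice 1 to 3 close together and mouse 4 just under the lowest vehicle-treated mouse. Gbp6, named after its values were seen, was at 1.35, 1.65, 0.623 and 5.22 CPM against 4.10, 4.32 and 8.73 CPM. Mouse 4 was the highest mouse at 2d for 8 of the 9 IRG and GBP genes. Its macrophage score was the lowest of the group, 5.02 against 5.53 to 6.63, and its skeletal muscle score the highest, 12.39 against 11.50 to 11.84, and their part in the result was not tested. Isg15 was at 5.98, 6.55, 4.49 and 7.53 CPM, within the vehicle range of 3.94 to 9.31 CPM, as was Irgm2 apart from mouse 1 at 32.4 CPM. Stat2 at 27.9, 31.5, 23.6 and 39.3 CPM, Ddx58 at 18.4, 23.5, 19.2 and 28.6 CPM and Oasl2 at 20.7, 22.5, 18.5 and 20.9 CPM lay above their vehicle ranges of 16.1 to 21.8, 13.6 to 17.5 and 6.75 to 17.4 CPM. Ifit2 at 7.17 to 11.0 CPM, Bst2 at 22.9 to 33.3 CPM and Parp14 at 31.6 to 38.5 CPM overlapped with vehicle.

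Macrophage markers summed to 611 to 1624 CPM at 2d, all 4 mice above the vehicle range, and with their score as a covariate in 1 fit over all libraries the median log2 fold change was -0.14 with 0 ISGs called, where that fit without it had 0.31 and 3. The score was 5.02 to 6.63 at 2d and 2.98 to 4.57 in vehicle-treated mice, so this fit cannot tell it apart from the treatment. Without mouse 4 the counts were 5 called higher and 4 lower, without vehicle-treated mouse 3 they were 4 and 0, and without any other mouse no ISG was called. For these fits the share of all genes called is not given here.

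At 12d post-10U Col, no ISG was called by edgeR's quasi-likelihood test (0.762% of all 14176 genes were called higher). Of 44 tested 38 were higher, the median log2 fold change was 0.39, 7 had an unadjusted p under 0.05 (9.59% of all genes), 5 were without overlap (9.62%), and DESeq2 called 3, Gbp4, Gbp7 and Ifi44 (3.66%). Gbp4 was at 21.9, 15.2, 24.7 and 23.6 CPM against 9.02, 7.25 and 11.9 CPM (log2 fold change 1.21, SE 0.25, adjusted p = 0.0782), and Ifi44 at 4.71, 5.01, 6.41 and 12.8 CPM against 1.96, 3.59 and 3.09 CPM (1.37, SE 0.44, adjusted p = 0.187). Gbp7, at 65.6, 56.9, 51.4 and 40.6 CPM against 22.4, 25.5 and 40.8 CPM, overlapped with vehicle by mouse 4 (0.88, SE 0.26, adjusted p = 0.169). Gbp4 and Ifi44 were without overlap.

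Mouse 4 was the highest mouse at 12d for the next 7 genes. Ifit2 was at 11.3, 10.8, 11.4 and 30.2 CPM, all above the vehicle range of 5.40 to 9.27 CPM. Isg15 was at 4.23, 4.89, 4.20 and 13.2 CPM and Oasl2 at 10.1, 9.05, 10.4 and 25.8 CPM. Stat2 was at 19.0, 18.7, 17.8 and 33.4 CPM, Ddx58 at 13.9, 16.3, 17.8 and 30.8 CPM, Bst2 at 20.3, 18.9, 30.9 and 49.9 CPM and Parp14 at 32.9, 30.7, 39.4 and 51.8 CPM. In these 6 genes mouse 4 exceeded every vehicle-treated mouse and mice 1 and 2 lay within the vehicle range. Irgm2 at 45.3, 39.0, 56.2 and 49.6 CPM did not single out that mouse. Mouse 4 also held the highest macrophage score of its group, 5.83 against 3.04 to 3.93 in the other mice, and the part of this in the result was not tested. Without mouse 4 the median log2 fold change was 0.04, with 24 of 44 ISGs higher.

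The time points of 10U Col were also compared with each other. At 6d against 2d, 39 of 45 ISGs were higher at 6d (median log2 fold change 0.44), and all 9 IRG and GBP genes were among them. No ISG was called by edgeR (4.68% of all genes were called higher), 11 had an unadjusted p under 0.05 in that direction (12.4%), and DESeq2 called 6 (8.82%). Ifit2 (20.3, 34.6 and 11.7 CPM at 6d against 7.17, 8.49, 9.83 and 11.0 CPM at 2d) had a log2 fold change of 1.29 (SE 0.34, adjusted p = 0.0556). Dtx3l, the ubiquitin ligase that works with Parp9, was at 33.7, 37.2 and 35.3 CPM against 21.0, 26.8, 19.4 and 27.9 CPM (0.59, SE 0.16, adjusted p = 0.0609). Both were without overlap. Gbp3 had 0.84 (SE 0.26, adjusted p = 0.0871). Without mouse 4 of the 2d group 12 ISGs were called, without mouse 3 at 6d 2 were, and without mouse 2 at 6d the median was 0.11. Calls over all genes in these fits are not given here.

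At 12d against 6d, 38 of 45 ISGs were lower at 12d, with a median log2 fold change of -0.35, but none of them was called lower by edgeR (13.0% of all genes were). At an unadjusted p under 0.05, 5 were lower (21.5% of all genes), and DESeq2 called 3 lower, Dtx3l, Oasl2 and Zbp1 (17.8%). Gbp7 went the other way and rose: 65.6, 56.9, 51.4 and 40.6 CPM at 12d against 33.0, 32.7 and 32.1 CPM at 6d (log2 fold change 0.74, SE 0.17, adjusted p = 0.0217, edgeR), and 13.4% of all genes were called higher. The groups did not overlap for Gbp7, and its 3 mice at 6d were nearly equal. Its adjusted p was 0.000809 without mouse 4 at 12d, lay between 0.0525 and 0.0865 when any other 1 mouse was left out, and was 0.140 in 1 fit over the 31 libraries. Without mouse 4 of the 12d group 21 ISGs were called lower and the median was -0.69, and without mouse 2 of the 6d group the median was -0.08. What share of all genes was called lower without mouse 4 is not given here, so the 21 cannot be read as particular to ISGs.

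After 0.2U Col no ISG passed edgeR's quasi-likelihood test in either group. In 1C, 41 of 44 ISGs were higher, and the 44 had a median log2 fold change of 0.52. None of the 44 was called (0% of all 14493 genes were called higher), 4 had an unadjusted p under 0.05 (6.82%) and DESeq2 called 0 (2.48%). The groups did not overlap in 1 ISG (4.31% of all genes), Rsad2, at 24.7, 29.5, 24.3 and 25.8 CPM against 16.7, 10.3 and 18.4 CPM (log2 fold change 0.79, SE 0.22, adjusted p = 0.276). Ifit2 was at 13.5, 8.25, 14.4 and 12.0 CPM (0.77, SE 0.28, adjusted p = 0.340) and Gbp4 at 10.7, 13.2, 22.0 and 18.2 CPM (0.78, SE 0.31, adjusted p = 0.371), with mouse 2 for Ifit2 and mouse 1 for Gbp4 inside the vehicle range. Mouse 1 was highest for Stat2 (53.3, 19.9, 27.4 and 21.7 CPM), Isg15 (8.51, 7.44, 5.84 and 3.86 CPM) and Ddx58 (40.9, 13.7, 22.0 and 15.5 CPM). Oasl2 was at 23.9, 9.49, 27.3 and 12.8 CPM, Bst2 at 16.2 to 29.7 CPM, Irgm2 at 38.3 to 64.6 CPM and Parp14 at 28.8 to 57.2 CPM, all overlapping with vehicle.

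In RPC, all 44 ISGs tested were higher, and their median log2 fold change was 0.57, where all 14269 genes had 0.01. None was called by edgeR (0%), 5 had an unadjusted p under 0.05 (6.33% of all genes), 5 were without overlap (4.93%) and DESeq2 called 1, Gbp4 (1.32%). Gbp4 was at 23.6, 15.2, 27.4 and 18.7 CPM against 9.02, 7.25 and 11.9 CPM (log2 fold change 1.18, SE 0.27, adjusted p = 0.265), Ifi44 at 6.13, 5.04, 9.60 and 4.67 CPM against 1.96, 3.59 and 3.09 CPM (1.16, SE 0.35, adjusted p = 0.290) and Gbp3 at 16.7, 14.7, 30.1 and 13.6 CPM against 9.11, 11.2 and 11.7 CPM (0.83, SE 0.30, adjusted p = 0.318). All 4 mice exceeded vehicle in these 3 genes. Without mouse 3 the median was 0.30, with 37 of 44 higher.

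Among the mice with high ISGs, mouse 3 of RPC differed in which genes were high, and its genes are named here after their values were seen. Igtp was at 157 CPM in this mouse against 40.2, 17.9 and 23.0 CPM in the other RPC mice, and was its highest value over all 31 libraries, above 77.3 CPM in mouse 3 at 5d post-CFA. Irgm2 was at 172 CPM against 58.7, 32.1 and 41.9 CPM, Irgm1, which regulates the other IRG proteins, at 125 CPM against 40.1, 46.8 and 49.2 CPM, and Gbp6 at 30.1 CPM against 4.40, 4.51 and 6.08 CPM. Irgm2 was higher still in mouse 3 at 1d post-CFA (222 CPM), and Irgm1 in mouse 3 at 5d post-CFA (187 CPM). In RPC mouse 3 Isg15 was at 8.04 CPM against 5.60, 7.49 and 5.23 CPM, and Ifit2 at 8.71 CPM against 13.7, 8.41 and 8.72 CPM. The IRG and GBP score of this mouse was 5.79, above every mouse at 5d post-CFA (4.34, 4.80 and 5.59), whereas its OAS score of 1.92 was close to the lowest of them (1.87). RPC mouse 3 was also the highest RPC mouse for Stat2 (21.0, 27.4, 50.1 and 23.4 CPM), Ddx58 (16.4, 24.7, 33.5 and 19.8 CPM), Oasl2 (11.1, 16.1, 26.1 and 13.6 CPM), Bst2 (30.8, 27.5, 44.2 and 22.2 CPM) and Parp14 (40.1, 35.6, 62.2 and 31.4 CPM). Its macrophage score, 4.29, lay within the 4.13 to 4.52 of the other RPC mice, and its salivary gland score of 6.52 was just below the highest of them (6.56). Other markers set this mouse apart: its T and NK cell score was -0.15 against -1.93 to -1.22 in the other RPC mice, with Cd3g at 1.05 CPM against 0 to 0.0764 CPM and Cd8a at 0.999 CPM against 0.0957 to 0.153 CPM. Its keratinocyte score was also the highest (5.62 against 3.88 to 4.34), while its scores were the lowest for neutrophil (0.092 against 4.19 to 4.49), B cell (-2.26 against 0.71 to 0.84) and fibroblast markers (7.39 against 8.48 to 9.22). Their part in the result was not tested.

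**Figure D5:**
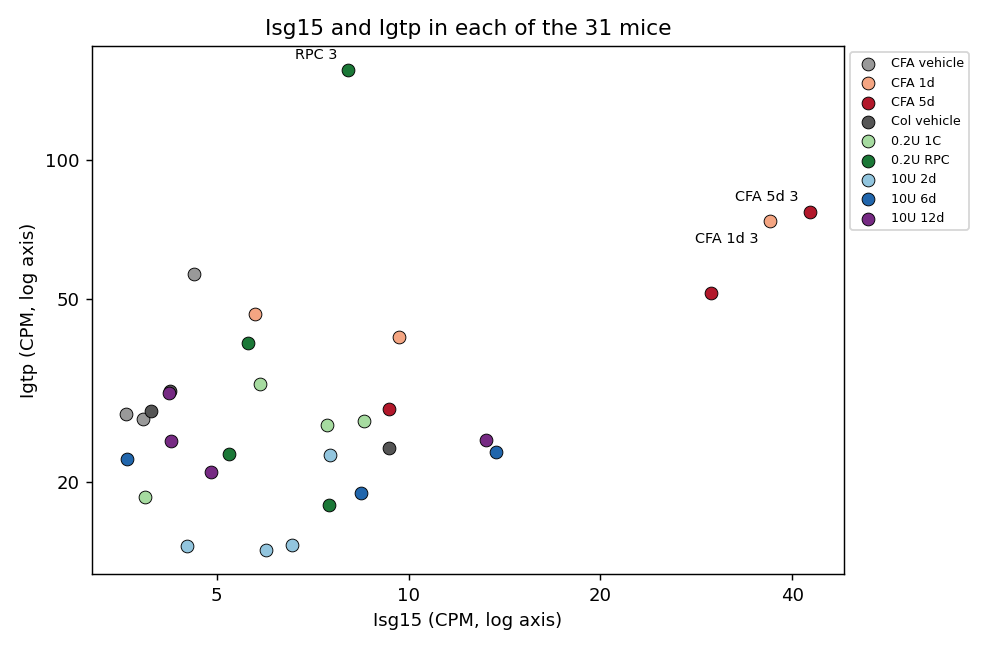
Isg15 (x axis) and Igtp (y axis) in CPM in each of the 31 mice, both on log axes, coloured by group, with 3 mice labelled by group and number. Mouse 3 of RPC holds the highest Igtp (157 CPM) at 8.04 CPM of Isg15, while mouse 3 at 5d post-CFA has 77.3 CPM of Igtp at 42.6 CPM of Isg15.

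Whether CFA and 10U Col moved the ISGs by different amounts was tested as an interaction, the change against vehicle after Col minus that after CFA. At the first time points (2d after Col as labelled, 1d after CFA), 43 of 45 ISGs had the smaller change after Col, with a median difference of -0.52, and none passed edgeR's quasi-likelihood test (0.0406% of all 14794 genes were called lower). At an unadjusted p under 0.05, 5 were lower (3.31%), and DESeq2 called 0 (0.324%). The smallest unadjusted p-values were those of Igtp (-1.35, SE 0.45, adjusted p = 0.537), Irgm2 (-1.35, SE 0.47, adjusted p = 0.608) and Isg15 (-2.10, SE 0.78, adjusted p = 0.647). Without mouse 3 at 1d post-CFA the median difference was -0.13.

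At 6d post-10U Col against 5d post-CFA, 40 of 45 ISGs had the smaller change after Col, with a median difference of -1.08 on the log2 scale. Irf9 passed edgeR's test (difference -1.46, SE 0.32, adjusted p = 0.0187), and 6.96% of all 14892 genes were called lower. At an unadjusted p under 0.05, 12 ISGs were lower (16.6% of all genes), and DESeq2 called 4, Irf7, Irf9, Isg15 and Usp18, the protease that removes Isg15 (10.2% of all genes). Irf9 was at 21.7, 27.4 and 16.4 CPM at 6d post-10U Col, overlapping with 19.7, 23.5 and 18.4 CPM in its vehicle group, while all mice at 5d post-CFA exceeded theirs. With the salivary gland score as a covariate in 1 fit over all libraries the difference of Irf9 was -1.09 (adjusted p = 0.322), where that fit without it called Irf9. Gland scores did not overlap with vehicle in either treated group, so this fit cannot tell the score apart from the agents. The median difference was -0.20 without mouse 3 at 5d post-CFA, and Irf9 was not called without mouse 2 or 3 at 5d post-CFA. The days and the vehicle groups differ between the experiments, and the experiment and the agent cannot be told apart.

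A further list of 60 genes of the interferon pathway, of which 58 were in the tables and 47 had enough reads to be tested, was read beside the 45. Of 10 interferon genes none could be tested. Ifnb1 was above 0 in 1 library (0.0685 CPM) and Ifng in 25 libraries, at 0.532 CPM at most, while Ifna1, Ifna2, Ifna4, Ifna5, Ifne, Ifnk, Il28a and Il28b were listed at 0 in all 31, where 3 reads would have been 0.103 to 0.202 CPM. The receptor Ifnar1 rose at 6d post-10U Col, from 42.2, 32.5 and 34.2 CPM to 56.7, 59.2 and 49.7 CPM (log2 fold change 0.58, SE 0.17, adjusted p = 0.0384), without overlap. Its partner Ifnar2 had 0.55 (SE 0.22, adjusted p = 0.0956) at 6d and 0.75 (SE 0.17, adjusted p = 0.0927) at 5d post-CFA, and fell by 0.68 on the log2 scale between 6d and 12d (SE 0.20, adjusted p = 0.0418). At 6d Ifngr1 had -0.05 (SE 0.14, adjusted p = 0.798) and Ifngr2 -0.44 (SE 0.15, adjusted p = 0.0609).

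Irf1, an early target of interferon gamma, was at 36.1, 36.4 and 46.4 CPM at 5d post-CFA against 29.8, 44.3 and 34.0 CPM, overlapping (0.19, SE 0.19, adjusted p = 0.743), and at 37.1, 36.3 and 32.8 CPM at 6d post-10U Col against 30.0, 25.9 and 26.1 CPM, without overlap (0.35, SE 0.15, adjusted p = 0.118). Irf1 was thus separated from vehicle at 6d post-10U Col without passing the test.

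In this list 2 genes rose at 5d post-CFA, Ifi27l2a (279.5, 764 and 904 CPM against 28.1, 51.5 and 35.8 CPM, log2 fold change 4.13, SE 0.50, adjusted p = 0.0308) and the nuclear body protein Sp100 (1.49, SE 0.24, adjusted p = 0.0423), and none fell (1.06% of all genes were called higher). Salivary gland scores were 6.16, 6.09 and 5.60 in these 5d mice and -0.94, -0.63 and 4.27 in their vehicle group. In Col vehicle-treated mice Ifi27l2a was at 24.5, 192 and 52.2 CPM at gland scores of -0.55, 6.01 and 4.96. At 6d post-10U Col 16 of 47 rose (14.0% of all genes were called higher) and 1, the interferon lambda receptor chain Il28ra, fell by 3.06 on the log2 scale. Il28ra was at 0.172, 0.719 and 0.207 CPM at 6d against 0.915, 4.92 and 3.54 CPM in vehicle-treated mice, and the share of all genes called lower is not given here. The gland scores at 6d were -1.53, -1.66 and -1.59, all below the Col vehicle scores just given, and their part in this fall was not tested. Of 11 sensors and adaptors 7 rose then, among them the endosomal receptors Tlr7 (15.4, 23.0 and 12.2 CPM against 1.66, 0.865 and 3.36 CPM, log2 fold change 3.04, SE 0.50, adjusted p = 0.0079), Tlr8 (3.04, SE 0.89, adjusted p = 0.0412) and Tlr9 (2.75, SE 0.59, adjusted p = 0.0170). Macrophage markers were high in the same mice, and salivary gland markers in the mice at 5d post-CFA, and their part in these changes was not tested. Between 12d and 6d, 13 of 47 fell (13.0% of all genes) and 1, the kinase Jak2, rose (13.4%). In the other 5 comparisons with vehicle 0 genes of this list passed edgeR's test. At an unadjusted p under 0.05, 10 of 47 were higher at 1d post-CFA (3.06% of all genes), 2 in 1C (6.82%), 3 in RPC (6.33%), 16 at 2d (17.5%) and 3 at 12d (9.59%). DESeq2 called 0, 0, 0, 11 and 2 of them higher, against 0.330%, 2.48%, 1.32%, 11.7% and 3.66% of all genes.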

How the data were processed

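RNA was taken from the left MM of 31 mice, 1 library per mouse, as stranded TruSeq poly(A) libraries read from 1 end. The submitters' processing notes name bcl2fastq, TopHat2, HTSeq and mm9. The authors deposited raw read counts per gene symbol for each library. The 5 lines of reads on no gene, 41.7% to 58.9% of reads (median 54.1%), were left out of library sizes. The members and lists were chosen with earlier results of these data known. Groups came from the labels, which do not say how replicates were kept apart beyond separate mice, so p-values measure the spread between these mice. CPM was scaled by TMM over the 31 libraries, and 10 counts equalled 0.344 to 0.674 CPM, so low genes are the least precise.

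Each comparison kept genes with 10 or more counts in at least 3 of its libraries and used edgeR 4.0.16's quasi-likelihood test in R 4.3.3 (limma 3.58.1), with Benjamini-Hochberg adjustment over all genes tested and a threshold of 0.05. The SE was taken as the size of the change over the root of its F statistic. Differences between experiments were interaction terms. Scores are means of log2 CPM with a prior count of 2 (0.5 as an alternative). Gene positions and exon lengths for RPKM came from GENCODE vM1 on mm9, with 2843 bp set for symbols without a model. The genes named were the ISGs called (all at 6d post-10U Col, up to 6 elsewhere, or the 3 with the smallest unadjusted p where none was called), 1 fixed example per role in every group (Stat2, Isg15, Ddx58, Ifit2, Oasl2, Bst2, Irgm2 and Parp14), any called against the median, and Irf1, Ifnb1, Ifng and the receptor genes. 1 further gene of that rule is not reported here.

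Alternatives were a fold of 2 with an RPKM of 1 as further thresholds, DESeq2 1.42.0, its size factors in edgeR, no filter, 1 fit over 31 libraries, the replicate block, pooled vehicle groups and each mouse left out. Fits with a salivary gland or macrophage score as a covariate were added after seeing the data. Same-numbered mice are different animals. In CFA 1d against vehicle every pair of same-numbered mice deviated together (lowest r 0.164, mean 0.337), and in no other comparison did every pair exceed 0.1. With the replicate block 0 ISGs were called at 1d post-CFA. edgeR's test was checked on simulated counts in which each gene varied on its own around its mean. That check does not cover genes that move together within 1 mouse.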

Additional observations from a re-analysis of the deposited data

Results flagged for a closer look

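In the groups of 4 mice, 68 series of scores and example genes were searched for a highest or lowest mouse far from the rest by Dixon's 95% criterion, which chance meets in about 1 in 20 groups, and 9 met it. The series share genes and mice and are not independent, so the 9 cannot be set against that rate. In RPC the highest mouse stood apart for the ISG score (4.03, mouse 3, against 3.18 to 3.25) and for Ifit2 (3.78 log2 CPM, mouse 1). At 12d post-10U Col mouse 4 stood apart in the score of the ISGF3 group with Irf7 (5.02), of the ISG15 system (3.42) and of the sensors (3.76). The same mouse stood apart in log2 CPM of Stat2 (5.06), Isg15 (3.72), Ifit2 (4.92) and Oasl2 (4.69). Its macrophage score was also the highest of its group, and the part of that in these values was not tested. The change of Irf9 against vehicle differed between 6d post-10U Col and 5d post-CFA by -1.46 on the log2 scale in the interaction test (adjusted p = 0.0187, edgeR).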

How the results depend on the processing

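The median log2 fold change of the ISGs kept its sign when any 1 mouse was left out, ranging from 0.34 to 1.14 at 1d and 1.17 to 1.83 at 5d post-CFA, 0.38 to 0.69 in 1C, 0.30 to 0.70 in RPC, and 0.18 to 0.40, 0.53 to 1.02 and 0.04 to 0.55 at 2d, 6d and 12d post-10U Col. Numbers of ISGs called moved far more. Apart from the shares given above for the main test and DESeq2, calls over all genes are not set beside these counts. A change of a count between settings thus cannot be read as particular to ISGs. Fits with the gland or macrophage score are to be read against 1 fit over 31 libraries, of which they are versions. At 1d post-CFA DESeq2 called 2 ISGs against 0 in edgeR. At 5d post-CFA, against 1, the count was 29 by DESeq2, 0 with its size factors in edgeR, 2 without the filter, 9 in 1 fit over 31 libraries, 12 with the replicate block, 0 with pooled vehicles, 0 with the gland score, 0 with the macrophage score and 0 to 33 without 1 mouse (33 without vehicle mouse 3). In RPC DESeq2 called 1. At 2d, against 1, it was 8 by DESeq2, 3 in 1 fit, 8 with the replicate block, 16 with pooled vehicles, 3 with the gland score, 0 with the macrophage score and 0 to 9 without 1 mouse. At 6d, against 12, it was 8 in 1 fit, 2 with the replicate block, 21 with pooled vehicles, 3 with the gland score, 0 with the macrophage score and 0 to 16 without 1 mouse (0 without mouse 2). At 12d DESeq2 called 3, pooled vehicles gave 1, and leaving out 1 mouse gave 0 to 2 (2 without vehicle mouse 3). For 5d against 1d post-CFA DESeq2, 1 fit and the replicate block gave 2 each. For 6d against 2d DESeq2 gave 6, the replicate block 9, and leaving out 1 mouse 0 to 12. For 12d against 6d, against 1, the fold and RPKM thresholds gave 0, DESeq2 4, 1 fit 0, the replicate block 13 and leaving out 1 mouse 0 to 22 (22 without mouse 4 at 12d). For 6d post-10U Col minus 5d post-CFA, against 1, DESeq2 gave 4, the gland score 0, the macrophage score 3 and leaving out 1 mouse 0 to 6 (6 without mouse 1 and 0 without mouse 2 or 3 at 5d post-CFA).

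With the macrophage score the median was -0.14 at 2d and 0.016 at 6d, and at 6d Bst2 (-0.080), Isg15 (-0.24), Mx1 (-0.45), Trim30a (-0.21) and Zbp1 (-0.024) changed sign. Macrophage scores at 2d and 6d all lay above vehicle, so these fits cannot tell the score apart from the treatment. Without 1 mouse Ifit2 at 1d post-CFA ranged from -0.034 to 1.35, Irgm2 at 5d from -0.012 to 0.72 and Irgm2 at 6d post-10U Col from -0.22 to 0.044. The cause was not tested. At this depth 10 counts were 0.344 to 0.674 CPM, so Mx1, Mx2 and Zbp1 in vehicle-treated mice rest on few reads.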
